A study of Mus musculus with 12 samples.

Results

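The 10 dual-specificity phosphatase (DUSP) genes, Dusp1, Dusp2, Dusp4, Dusp5, Dusp6, Dusp7, Dusp8, Dusp10, Dusp14 and Dusp16, were followed in mouse liver after an acetaminophen (APAP) overdose. They are 10 of the 45777 genes in the expression table and were chosen by symbol, with earlier results of these same livers in view. The counts with vehicle and after APAP are therefore taken as the values on which they were chosen, and the difference between APAP and vehicle is given below as a description. Where calls are counted, the count belongs to the fit over all genes and is no test of these genes. RNA was sequenced from 12 livers of C57BL/6 mice aged 10 to 12 weeks, 3 in each of 4 groups: WT with vehicle, WT with APAP, Gα12KO with vehicle and Gα12KO with APAP. The mice were males fasted overnight. APAP was given once into the peritoneum at 300 mg/kg, and livers were taken 6 h later. The Gα12KO animals carry the genotype label Gα12-/- (loss of Gna12, the gene of a G protein alpha subunit), and they are called KO here. Fasting is shared by all of these groups as the methods describe the model, so no liver stands for a fed animal. What the vehicle was is not given in the sources used here.

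The MAP kinases ERK, JNK and p38 are switched on when both a threonine and a tyrosine of their activation loop carry phosphate, and DUSP proteins of the MAP kinase phosphatase type remove both. Many of these phosphatases are themselves transcribed when a MAP kinase is active, so that the genes form a negative feedback loop. In APAP liver injury a reactive metabolite of the drug depletes glutathione and damages mitochondria, and sustained JNK activity is a known part of the hepatocyte response.

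Each library held between 49737950 and 69566079 gene counts. Counts of Gna12 were 3550, 1659 and 3172 in WT vehicle livers 1, 2 and 3, 1193, 4373 and 3178 after APAP, 4003, 3422 and 2472 in KO vehicle livers, and 2489, 3023 and 3248 in KO livers after APAP. They were thus not lower under the KO label. Which part of the gene the deletion removes is not given in the sources used here, so a count over the whole gene does not check the label. The study reports PCR of tail DNA, qRT-PCR of liver Gna12 and immunoblots of the Gα12 protein for WT and KO mice. Whether these were the animals sequenced is not stated. Every KO value below is that of the libraries labelled KO. The hepatocyte marker list summed to between 65400 and 128100 CPM (counts scaled to library size) in every liver. Most of this sum was Alb, at 43040 to 101100 CPM. Its marker Cyp2e1 was lower after APAP without overlap, at 3288 to 5348 CPM against 7510 to 8648 CPM with vehicle. Alb, Apoa1, Ttr and Cps1 overlapped between the treatments. Of the macrophage and endothelial markers, Cd68 and Lyve1 were higher in every APAP liver than in every vehicle liver. WT APAP liver 1 stood apart: its erythroid markers summed to 17370 CPM against 253 to 749 CPM in the other 11 libraries, and its neutrophil markers to 125 CPM against 1.10 to 20.8 CPM. Among the APAP livers it had the highest sum in every marker list, hepatocytes included (128100 CPM, next 88170 CPM in WT APAP liver 2). The factor that adjusts library size was also lowest in this library, at 0.75, with 0.89 the next lowest (WT vehicle liver 2). A lower factor gives higher CPM for all genes of a library. How much of its marker sums came from this factor was not tested. WT vehicle liver 2 had 18.0 CPM of neutrophil markers, where the other 5 vehicle livers had 1.16 to 2.44 CPM. Of the neutrophil markers, Mpo was at 0 in all 12 livers and Ly6g was at 0 in 8. The cholangiocyte list was the one whose sum moved with APAP without overlap, from 2.54 to 7.71 CPM with vehicle to 18.0 to 40.3 CPM after APAP, and Sox9 was its main component, while Krt19 stayed under 1 CPM in every liver. The part of these other cell types in the DUSP levels was not tested. In bulk tissue, fewer cells of a type and less RNA per cell cannot be told apart.

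Promoter sequences were found for 9 of the 10 genes in RefSeq (build GRCm38.p6). The 4 printed here are the 250 bases before the start site of Dusp1, Dusp5 and Dusp8, which hold complete matches to motifs of stimulus-responsive genes, and of Dusp7, the one member whose APAP and vehicle livers overlapped. Each reads 5′ to 3′ on the strand of the gene. For Dusp8 the start site used, at 142095284, lies inside the gene interval given below, so its whole window is within the gene. The same holds for the windows searched for Dusp14 and Dusp16, and that of Dusp7 runs into its gene. Capitals mark the cyclic AMP response element (CRE, TGACGTCA) in Dusp1 and Dusp8 and 2 adjoining CArG boxes, the motif bound by serum response factor, in Dusp5.
Dusp1, chr17:26508473-26508722, minus strand: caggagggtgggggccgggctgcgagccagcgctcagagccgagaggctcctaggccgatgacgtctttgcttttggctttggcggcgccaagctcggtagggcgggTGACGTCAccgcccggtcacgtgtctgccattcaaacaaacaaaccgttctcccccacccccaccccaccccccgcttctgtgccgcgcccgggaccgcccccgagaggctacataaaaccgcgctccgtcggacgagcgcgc
Dusp5, chr19:53528895-53529144, plus strand: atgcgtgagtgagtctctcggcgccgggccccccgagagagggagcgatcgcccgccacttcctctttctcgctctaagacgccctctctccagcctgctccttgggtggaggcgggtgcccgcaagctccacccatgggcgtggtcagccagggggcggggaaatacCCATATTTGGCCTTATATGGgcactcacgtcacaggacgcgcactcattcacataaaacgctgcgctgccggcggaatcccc
Dusp8, chr7:142095285-142095534, minus strand: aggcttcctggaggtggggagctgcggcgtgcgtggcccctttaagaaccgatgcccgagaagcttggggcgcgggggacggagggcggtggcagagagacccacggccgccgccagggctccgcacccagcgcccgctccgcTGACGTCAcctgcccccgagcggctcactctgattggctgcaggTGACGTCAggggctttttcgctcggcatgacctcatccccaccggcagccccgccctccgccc
Dusp7, chr9:106368382-106368631, plus strand: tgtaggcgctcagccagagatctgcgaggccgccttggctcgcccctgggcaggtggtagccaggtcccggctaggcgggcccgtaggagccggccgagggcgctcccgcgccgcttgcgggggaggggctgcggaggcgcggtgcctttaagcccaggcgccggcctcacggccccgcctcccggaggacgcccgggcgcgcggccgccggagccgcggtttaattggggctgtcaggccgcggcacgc

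The CRE of Dusp1 lies at positions -143 to -136, counted from the start site with -1 as the base before it. Dusp8 has one at -107 to -100 and another at -63 to -56. Of 32851 mouse promoters in the same table, searched on both strands, 1.55% hold a CRE in these 250 bases and 10 promoters, or 0.0304%, hold 2 or more. The CArG boxes of Dusp5 lie at -82 to -73 and -72 to -63, next to each other without overlap. One CArG box or more is found in 1.47% of the promoters, and 6 of them hold 2 or more. A site for EGR factors, GCGNGGGCG, lies in Dusp2 at -98 to -90 and in Dusp16 at -138 to -130, against 4.70% of all promoters. TGACG, which is contained in each CRE, was found in Dusp1, Dusp5, Dusp8 and Dusp16, against 17.8%, and the antioxidant response element core TGACNNNGC in Dusp1 and Dusp5, against 10.2%. No AP-1 site (TGANTCA, 6.75% of promoters), kappaB site (by name, 7.25%), ETS site (CCGGAAGT, 2.88%) or TATAAA (12.4%) was found in the 9 windows, and Dusp6, Dusp7, Dusp10 and Dusp14 held none of the motifs searched. The median GC content of these windows was 68.4%, against 52.4% over all promoters. A match is a string of letters and shows no binding.

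The inducible nuclear phosphatases are described first, on the scale of CPM with library sizes adjusted by the trimmed mean of M-values (TMM), which allows a comparison of one gene between livers. Dusp1 (MKP-1, chr17:26505591-26508472 in GRCm38, 4 exons) acts on p38, JNK and ERK. Its level was 15.9, 39.0 and 31.1 CPM in WT vehicle livers 1, 2 and 3 and 286, 223 and 349 CPM after APAP. With the KO label it was 13.3, 20.8 and 12.6 CPM with vehicle and 91.6, 272 and 179 CPM after APAP. Every APAP liver lay above every vehicle liver, and the lowest of them (KO liver 1) was 2.35-fold above the highest vehicle liver (WT liver 2). The log2 fold change between APAP and vehicle was 3.33 ± 0.37 (SE, 3 livers against 3) in WT and 3.55 ± 0.40 with the KO label.

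Dusp4 (MKP-2, chr8:34807610-34819894), a nuclear phosphatase of ERK and JNK, stood at 1.45, 1.78 and 1.52 CPM in WT vehicle livers and at 21.2, 11.2 and 14.9 CPM after APAP. In KO livers the values were 1.95, 1.66 and 1.28 CPM with vehicle and 16.4, 14.3 and 20.8 CPM after APAP. The 2 treatments did not overlap, and the lowest APAP liver was 5.77-fold above the highest vehicle liver. Its log2 fold changes were 3.33 ± 0.29 in WT and 3.40 ± 0.22 with the KO label.

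Dusp5 (chr19:53529145-53541809), whose protein is a nuclear phosphatase selective for ERK, was close to the limit of detection with vehicle, at 9 to 29 counts per library. These were 0.413, 0.608 and 0.220 CPM in WT and 0.403, 0.506 and 0.199 CPM with the KO label. After APAP it reached 44.0, 13.1 and 13.99 CPM in WT livers 1, 2 and 3 and 20.3, 9.82 and 24.5 CPM in KO livers. The lowest APAP value exceeded the highest vehicle value 16.2-fold, the widest such gap among the 10 genes. WT APAP liver 1, with the erythroid and neutrophil signal given above, was 1.80-fold above the next APAP liver in CPM. In TPM it was not the highest, at 24.1 against 25.5 in KO APAP liver 3. Dusp5 differed by 5.85 ± 0.66 on the log2 scale in WT and by 5.60 ± 0.44 with the KO label, and by 5.03 in WT without that liver.

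Dusp2 (PAC1, chr2:127336159-127338377), a nuclear phosphatase best known from leukocytes, was counted too rarely for a firm statement. With vehicle it had 13, 11 and 5 counts in WT livers and 5, 4 and 10 in KO livers, and after APAP 32, 23 and 34 counts in WT and 19, 35 and 31 in KO. On the TMM-scaled axis the lowest APAP liver (0.306 CPM) was still above the highest vehicle liver (0.244 CPM). The log2 fold change was 1.36 ± 0.54 in WT and 1.83 ± 0.51 with the KO label.

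**Figure D1:**
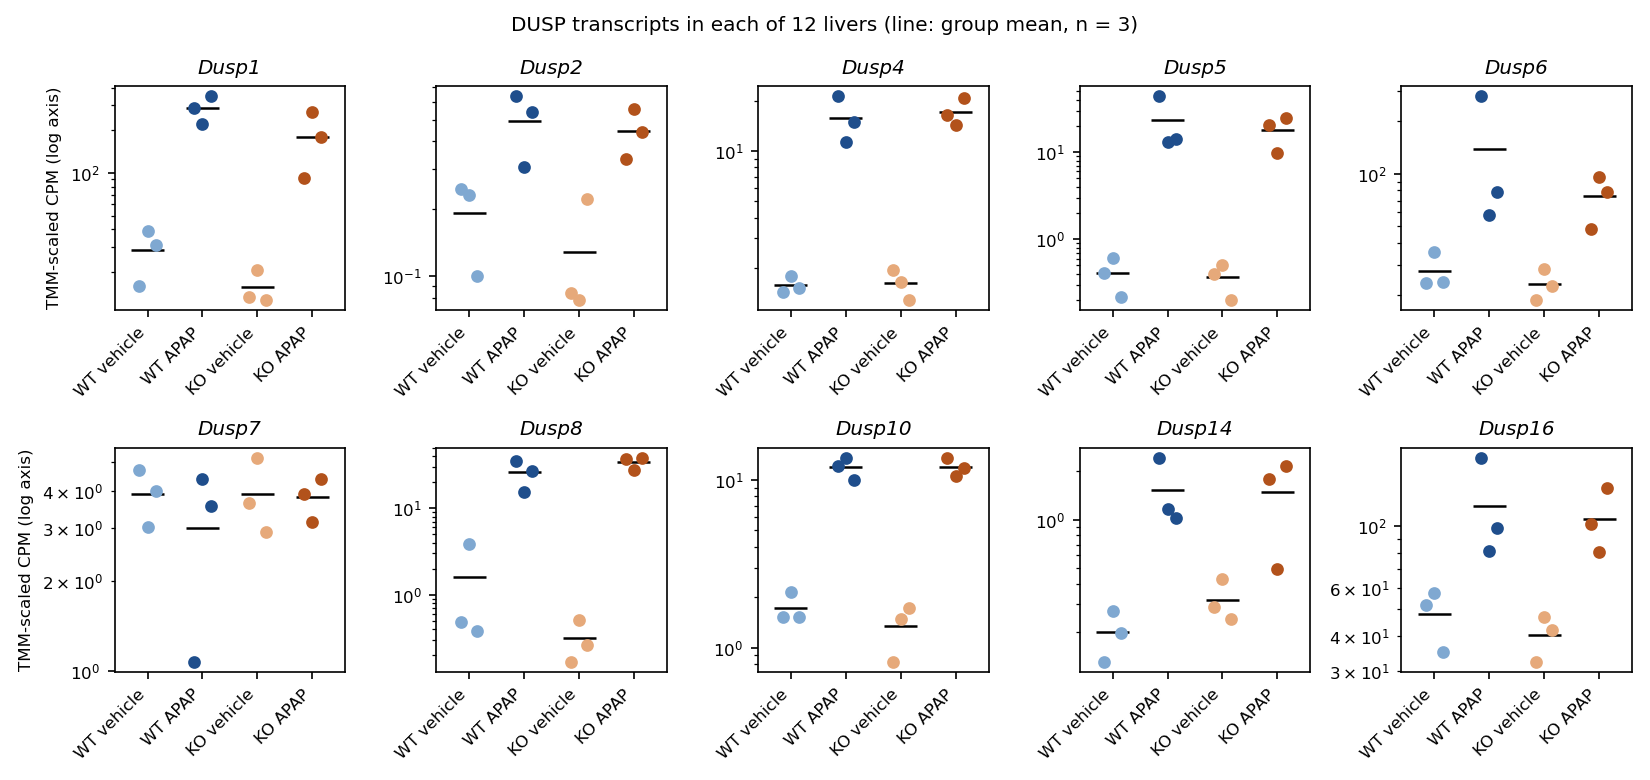
TMM-scaled CPM (vertical log axis, its range set for each gene) of the 10 DUSP genes in the 4 groups (horizontal), with 1 point per liver and a line at the mean of 3 livers. In 9 of the 10 panels all 6 APAP livers lie above all 6 vehicle livers, while in the Dusp7 panel they overlap; WT vehicle liver 2 at 3.90 CPM stands out in the Dusp8 panel and WT APAP liver 1 at 278 CPM in the Dusp6 panel.

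The cytoplasmic phosphatases Dusp6 and Dusp7, both selective for ERK, differed in their values. Dusp6 (MKP-3, chr10:99263231-99267489), a classical feedback gene of ERK, stood at 23.6, 35.4 and 23.9 CPM in WT vehicle livers and 18.7, 28.4 and 22.5 CPM in KO vehicle livers. After APAP it was 278, 58.0 and 78.7 CPM in WT livers 1, 2 and 3 and 48.3, 95.1 and 78.7 CPM in KO livers. In CPM, WT APAP liver 1 was the highest APAP liver for 6 of the DUSP genes. In TPM, Dusp6 was the only one of these for which this held. For Dusp2, Dusp4, Dusp5, Dusp14 and Dusp16 a KO APAP liver was higher in TPM. Dusp16, for example, was at 34.0 TPM in WT APAP liver 1 and at 50.8 TPM in KO APAP liver 3. For Dusp6, WT APAP liver 1 was 2.93-fold above the next highest in CPM. In TPM, which do not use the TMM factor (0.75 in this library), the 2 livers were closer, at 99.1 and 62.4. The groups did not overlap, though the lowest APAP liver exceeded the highest vehicle liver by 1.36-fold, and the log2 fold change of 2.34 ± 0.59 in WT became 1.31 without WT APAP liver 1. In KO livers it was 1.68 ± 0.26. The long non-coding gene Gm34921, which overlaps Dusp6, had 0 to 30 counts per library against at least 1020 for Dusp6.

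Dusp7 (chr9:106368560-106375724), called MKP-X, was the exception. It measured 4.68, 3.02 and 3.99 CPM in WT vehicle livers and 1.07, 4.39 and 3.55 CPM after APAP. With the KO label the values were 3.64, 5.16 and 2.92 CPM with vehicle and 3.90, 3.15 and 4.37 CPM after APAP. Here the treatments overlapped in both genotypes, and the lowest value of all was again from WT APAP liver 1. Its log2 fold change was -0.37 ± 0.48 in WT, with a 95% interval from -1.48 to 0.75, and -0.03 ± 0.24 with the KO label, from -0.59 to 0.53. Without WT APAP liver 1 the WT value was 0.03.

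Of the members that act on JNK and p38 rather than ERK, Dusp8 had the largest difference between APAP and vehicle. Dusp8 (chr7:142079487-142095907, 7 exons) had 26, 186 and 19 counts in WT vehicle livers 1, 2 and 3 and 10, 26 and 12 in KO vehicle livers, which are 0.488, 3.90 and 0.379 CPM and 0.168, 0.506 and 0.265 CPM. APAP livers held 35.1, 15.4 and 27.2 CPM in WT and 36.9, 27.98 and 38.3 CPM in KO. All APAP livers were higher than all vehicle livers. One vehicle library, WT liver 2, was 7.70-fold above the next vehicle liver. This is the same liver that had the highest neutrophil marker sum of the vehicle livers, and it was also the highest vehicle liver for 6 of the 10 DUSP genes. The log2 fold change was 6.80 ± 0.33 with the KO label, or 111-fold, and 4.04 ± 0.88 in WT, which became 5.89 without WT vehicle liver 2. The 2 CRE of this gene are printed above.

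Dusp10 (MKP-5, chr1:184034381-184075636) regulates JNK and p38. It was found at 1.52, 2.14 and 1.52 CPM in WT vehicle livers and at 12.2, 13.5 and 10.0 CPM after APAP. In KO livers it was 0.823, 1.48 and 1.72 CPM with vehicle and 13.6, 10.5 and 11.7 CPM after APAP. In CPM the highest APAP liver was 1.35-fold above the lowest APAP liver, while in TPM, which are scaled to transcript length, they ran from 4.33 to 9.56. The lowest APAP liver was 4.69-fold above the highest vehicle liver. The log2 fold changes were 2.80 ± 0.25 in WT and 3.17 ± 0.27 with the KO label.

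Dusp16 (MKP-7, chr6:134715468-134807063, 7 exons), a JNK phosphatase that shuttles between cytoplasm and nucleus, combined one of the highest vehicle levels in TPM (scaled to transcript length) with a small difference. Its vehicle values were 51.7, 57.4 and 35.2 CPM in WT and 32.3, 47.1 and 42.3 CPM in KO. After APAP they were 177, 81.1 and 98.1 CPM in WT and 102, 80.6 and 137 CPM in KO. No APAP liver fell into the vehicle range, and the gap between them was 1.41-fold. The difference was 1.32 ± 0.33 in WT, 0.90 without WT APAP liver 1, and 1.40 ± 0.22 with the KO label. A pair of long non-coding genes overlap Dusp16, Gm36328 and 1700055D16Rik, and neither exceeded 37 counts in any library.

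Dusp14 (MKP-6, chr11:84048033-84069256) is an atypical member without the MAP kinase-binding domain of the others. With vehicle it had 7 to 22 counts per library, or 0.132, 0.273 and 0.200 CPM in WT and 0.286, 0.428 and 0.243 CPM in KO. After APAP it was 2.42, 1.17 and 1.02 CPM in WT livers and 1.78, 0.496 and 2.15 CPM in KO livers. KO APAP liver 2, at 31 counts, was just 1.16-fold above the highest vehicle liver. The log2 fold changes were 2.93 ± 0.52 in WT and 2.21 ± 0.55 with the KO label.

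In number, 9 of the 10 genes were higher in every APAP liver than in every vehicle liver within WT, where 12.9% of all genes tested did the same. It was 9 of 10 within the KO label too, against 21.8%, and 9 of 10 over 6 against 6 livers, against 7.11%. In the fit over all genes (edgeR's quasi-likelihood test, adjusted p under 0.05), 5 of the 10 lay among the 1.62% of genes called higher in WT. With the KO label it was 9 of 10, where 13% of genes were called higher, and over all 12 livers with genotype as a covariate 9 of 10, where 14% were. None was called lower. Since the genes were chosen on these values, the counts describe the choice, and nothing is read from them. The median log2 fold change of the 10 genes was 2.86 in WT, 2.69 with the KO label and 2.76 over all 12 livers, and the medians of all genes tested were 0.03, -0.02 and 0.01. The WT count changed with the livers left out, and so did the calls over all genes, which were 255 of 15693 higher with every liver. The member count was 2 without WT vehicle liver 3, where 41 of 16338 genes were called higher. It was 7 without both WT vehicle liver 2 and WT APAP liver 1, where 435 of 15903 genes were. The 2 genotypes do not share control livers, and their values for each gene stand side by side in the plot of log2 fold changes.

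**Figure D2:**
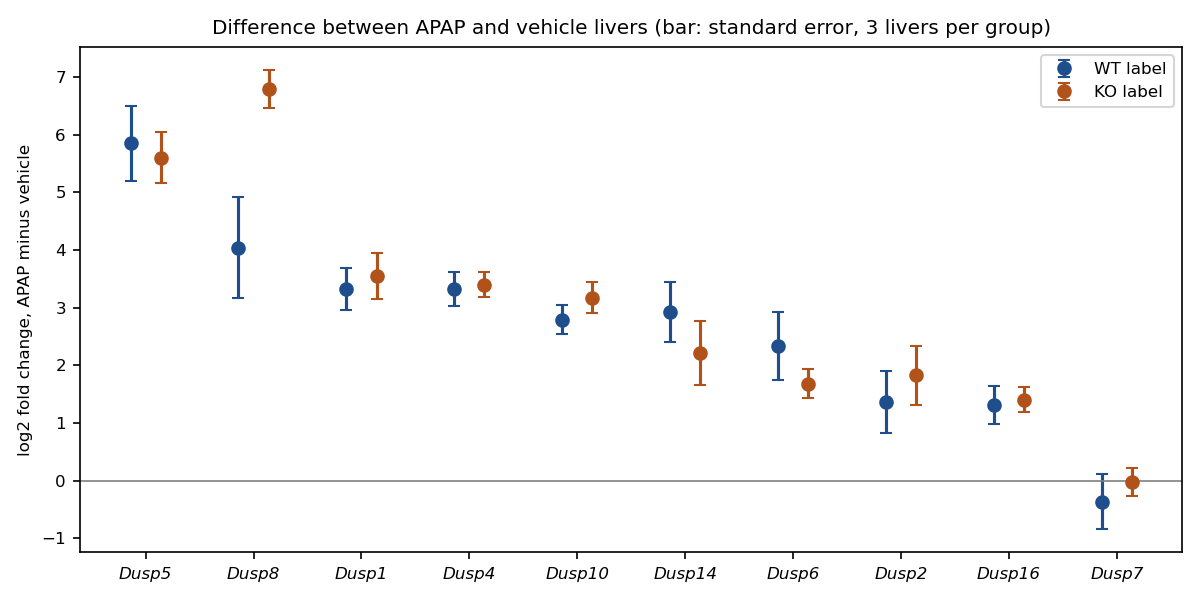
Log2 fold change between APAP and vehicle (vertical) for each DUSP gene (horizontal, ordered by the difference over all 12 livers), with the WT label in blue, the KO label in orange and bars for the standard error of the fit. Values run from 5.85 (WT) and 5.60 (KO) for Dusp5 to -0.37 and -0.03 for Dusp7, and the widest distance between the labels is that of Dusp8, at 4.04 and 6.80.

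Levels of different DUSP genes were compared in TPM, which are scaled to library size and take transcript length into account. With vehicle, 3 genes made up most of the pool: Dusp1, Dusp6 and Dusp16 together gave 88.2% to 91.9% of the summed TPM of the 10 genes in each of the 6 livers. Mean levels in WT vehicle livers were 22.6 TPM for Dusp1, 15.3 TPM for Dusp6 and 14.8 TPM for Dusp16, and the ranges of these neighbours overlapped. Dusp7 came next at 1.92 TPM, below Dusp16 without overlap. The other 6 genes had means of 1.01 TPM or less, from Dusp4 and Dusp10 to Dusp8, Dusp5, Dusp2 and Dusp14, and each overlapped the next in that order. In KO vehicle livers the same 3 genes led at 13.6 TPM for Dusp6, 13.3 TPM for Dusp1 and 12.8 TPM for Dusp16, again with overlapping ranges.

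The pool was larger after APAP, at 232 to 413 TPM per liver against 33.6 to 69.7 TPM with vehicle, and its make-up was another. Dusp1 took 40.1% to 71.3% of it, where it had taken 25.8% to 46.9% with vehicle. Dusp16 took 7.31% to 17.1%, below its vehicle range of 20.0% to 34.2%, even though its own level was higher. In WT the order after APAP was Dusp1 at 218 TPM, Dusp6 at 61.3 TPM, Dusp16 at 31.6 TPM and Dusp5 at 16.7 TPM, with no overlap between these neighbours. Dusp4 (9.14 TPM), Dusp8 (7.48 TPM) and Dusp10 (6.43 TPM) followed, each overlapping the next. Dusp7, which had come after those 3 genes with vehicle, was now below 7 others at 1.56 TPM. In KO livers Dusp1 led at 175 TPM, Dusp6 (49.9 TPM) and Dusp16 (39.6 TPM) overlapped, and Dusp5 (19.1 TPM), Dusp8 (13.6 TPM) and Dusp4 (13.4 TPM) overlapped in turn. By its mean, Dusp8 therefore went from the last place in KO vehicle livers, at 0.0924 TPM and overlapping Dusp2 (0.108 TPM), to the fifth. The scale also mattered for Dusp1 in WT APAP liver 1, which was the lowest of the WT APAP livers in TPM (146.5 against 214 and 295) and the middle one in CPM.

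**Figure D3:**
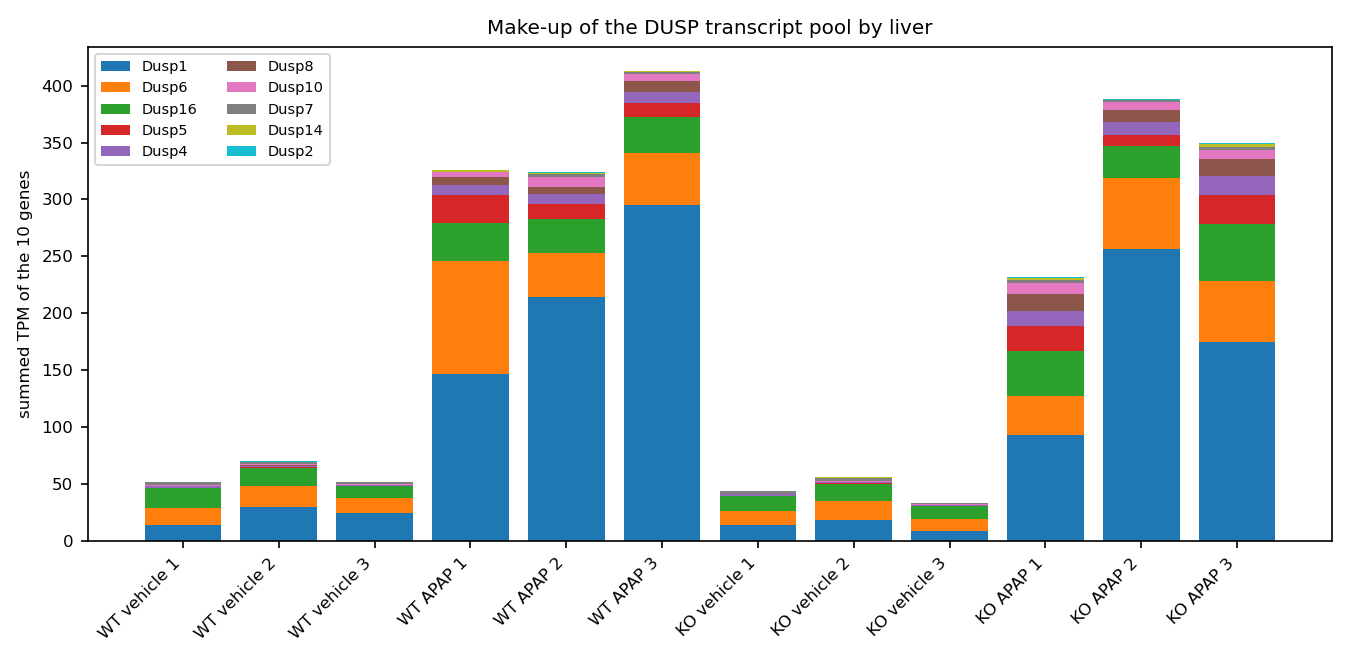
Stacked bars of TPM for the 10 DUSP genes in each of the 12 livers (vertical axis, summed TPM from 0). All 6 APAP bars, from 232 to 413 TPM, exceed all 6 vehicle bars, from 33.6 to 69.7 TPM, and Dusp1 is the largest segment of each APAP bar.

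The question of whether the genotype label alters the DUSP genes was tested by edgeR's quasi-likelihood test with Benjamini-Hochberg adjustment over all genes. After APAP, 0 of the 10 genes passed, where 5 of 16174 genes (0.0309%) did. With every liver in the fit, none had an unadjusted p under 0.05 in edgeR or DESeq2. In edgeR 1 member had such a p without WT APAP liver 1, as did 524 of 16579 genes. It was also 1 without WT APAP liver 2 (1267 of 16536 genes) and 1 without KO APAP liver 2 (534 of 16725 genes). The 10 genes overlapped between the labels in every case, while 8.73% of all genes tested did not. The largest differences, WT minus KO, were 0.92 ± 0.57 for Dusp6 (95% interval -0.39 to 2.24, adjusted p = 0.958) and 0.67 ± 0.37 for Dusp1 (-0.19 to 1.53, adjusted p = 0.958). For Dusp6 the sign came from 1 library: without WT APAP liver 1 the difference was -0.11. Dusp5 went likewise from 0.40 ± 0.52 (adjusted p = 0.961) to -0.42 without it. Dusp8 was at -0.40 ± 0.30 (adjusted p = 0.958). Dusp10 gave the narrowest interval, from -0.43 to 0.45 around 0.01. Differences of up to 1.53 for Dusp1 and 2.24 for Dusp6 lie within the intervals, so that 3 livers per group leave room for sizeable differences.

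In vehicle livers 0 of the 10 genes passed, against 4 of 15262 genes (0.0262%), and none was free of overlap between the labels, against 14% of genes. At an unadjusted p under 0.05 there were 2, Dusp1 and Dusp8, in edgeR and 2 in DESeq2, but 0 in limma on log2(TPM + 1). Over all genes 7.56% reached that p in edgeR. Dusp1 was 0.88 ± 0.34 higher with the WT label on the log2 scale (95% interval 0.11 to 1.66, adjusted p = 0.623 in edgeR's quasi-likelihood test) and 0.59 higher without WT vehicle liver 2. Dusp8 was 2.34 ± 0.95 higher (0.15 to 4.53, adjusted p = 0.639 in the same test), and this became 0.47 without that liver.

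The difference between the 2 responses, WT minus KO, was tested as an interaction over 12 livers. It passed for 0 of 16509 genes (0%) in edgeR, of which 848 (5.14%) had an unadjusted p under 0.05, and for 9 genes in DESeq2, none of them among these 10. Dusp8 was the one member with an unadjusted p under 0.05, at -2.75 ± 1.03 (95% interval -5.00 to -0.50, adjusted p = 0.872 in edgeR's quasi-likelihood test). Without WT vehicle liver 2 it was -0.90. The distance between 4.04 and 6.80 for Dusp8 in the 2 genotypes therefore depended on 1 vehicle library. Dusp1 was at -0.22 ± 0.56, Dusp5 at 0.24 ± 0.82 and Dusp6 at 0.65 ± 0.69, all smaller than their errors.

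**Figure D4:**
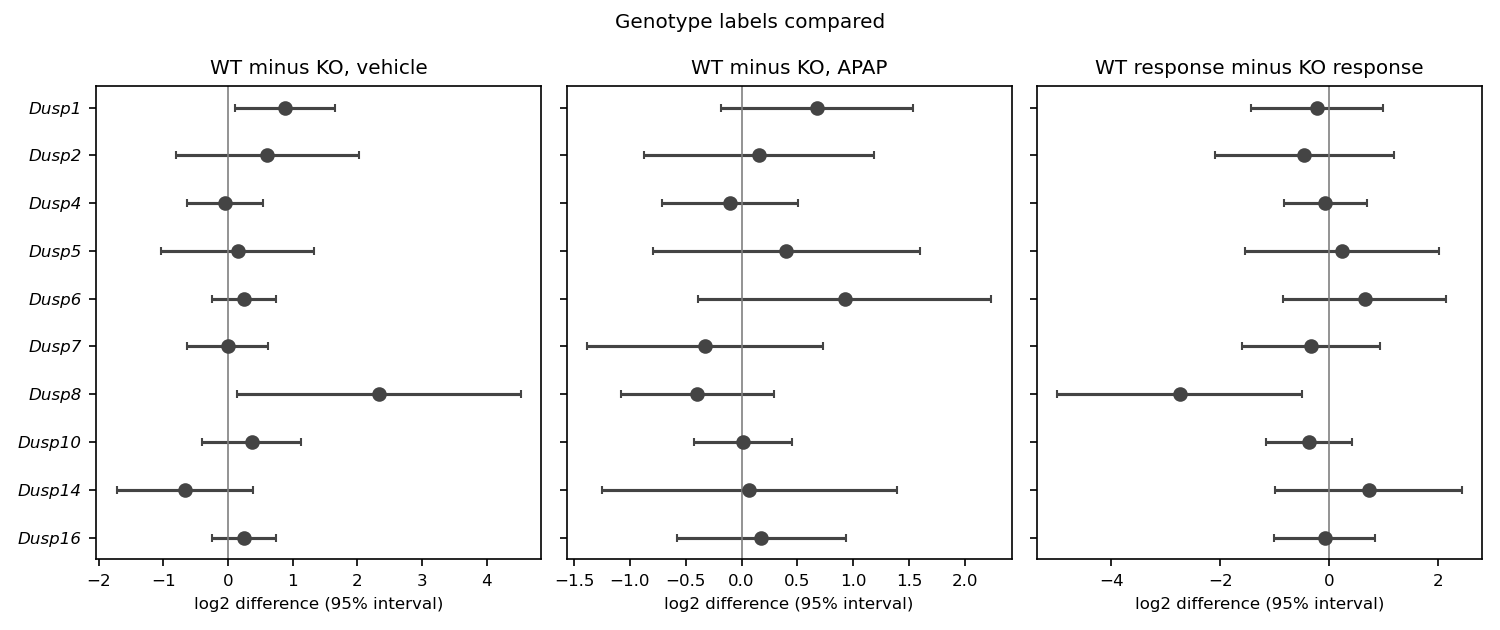
Log2 differences between the genotype labels (horizontal, a separate range in each panel) for the 10 DUSP genes, with 95% intervals, in vehicle livers, after APAP and as the difference between the 2 responses. Intervals leave out 0 for Dusp1 and Dusp8 with vehicle (0.88 and 2.34) and for Dusp8 in the difference of responses (-2.75), and none of these passed the adjustment over all genes.

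The genes with the pattern most like each member were found by the root mean square distance of centred log2 CPM over the 12 livers, among 16509 genes. The nearest to Dusp1 were Ier2 (0.41) and Ppp1r15a (0.46), both genes of rapid stress responses, where the median distance over all genes was 1.86. For Dusp4 they were Ampd1 (0.29) and Gclc (0.30), the latter the catalytic subunit of the first enzyme of glutathione synthesis. Dusp5 was nearest to Gsta1 (0.41), a glutathione S-transferase, and had Areg, an EGF receptor ligand, at 0.56. The nearest gene to Dusp6 was Sat1 (0.31), of polyamine breakdown, and to Dusp10 it was Gadd45b (0.32), a stress-inducible gene. Dusp8, with the widest spread, had Hmox1 at 0.68, Gadd45a at 0.76 and Jun at 0.84. For Dusp16 it was Pgm1 (0.19), for Dusp2 Snhg5 (0.33), for Dusp14 Gm34746 (0.41) and for Dusp7 Ankrd52 (0.13). None of the 3 nearest genes of any member was another of the 10. These distances describe 12 livers that share the same treatment contrast.

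The members are compact genes: 8 of the 10 span fewer bases than the median of 23200 for 13538 protein-coding genes tested, and their own median is 12475 bases. The kits were stranded, but how strand was used in counting is not stated, so reads of a DUSP gene and of a gene on the opposite strand cannot be told apart. Gm32786, which overlaps Dusp8, had 0 counts in all 12 livers.

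The other genes of the pathway were taken from lists written with earlier results known. Their differences between APAP and vehicle come from edgeR's quasi-likelihood test over 12 livers with genotype as a covariate. Most genes named from the lists are those with the largest changes in this same fit. Their adjusted p-values therefore belong to the fit over all genes and are no independent test of these lists. In that fit 14% of all genes were higher after APAP and 11.4% were lower. Of 16 other genes of the DUSP family, 9 had enough counts to be tested, 0 were higher after APAP and 2 were lower. Dusp11, an RNA phosphatase, differed by -0.47 ± 0.14 (adjusted p = 0.0249), and Dusp19, which acts in JNK signalling, by -0.72 ± 0.22 (adjusted p = 0.0273). In the other 7 no difference passed, with Dusp3 (VHR, an ERK and JNK phosphatase) at 40.7 ± 7.23 CPM in WT vehicle livers and 47.2 ± 1.27 CPM after APAP (mean ± SD, n = 3). Styxl1, a catalytically inactive family member, was at -0.48 ± 0.44 and did not pass. The median of the 9 was -0.19, against 0.01 for all genes.

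Among 9 MAP kinases tested, 2 were higher and 3 lower after APAP, none by more than 0.67 on the log2 scale. Mapk7 (ERK5) differed by 0.56 ± 0.17 and Mapk8 (JNK1) by 0.37 ± 0.10, and Mapk14 (p38 alpha) by -0.67 ± 0.17, Mapk3 (ERK1) by -0.47 ± 0.08 and Mapk9 (JNK2) by -0.26 ± 0.09. Mapk13 (p38 delta) did not pass, at 0.47 ± 0.37. Mapk14 was at 113 ± 21.7 CPM in WT vehicle livers and 65.2 ± 21.3 CPM after APAP, and at 92.3 ± 9.08 and 63.3 ± 14.5 CPM with the KO label. Of 7 MAP kinase kinases 2 were higher and 1 lower. Map2k3, which activates p38, and Map2k4, which activates JNK and p38, both rose by 0.47 ± 0.14 and 0.47 ± 0.10. The one that fell, Map2k6 (MKK6, an activator of p38), was at -3.02 ± 0.41 (adjusted p = 0.000281), the largest size of change in the kinase lists: it went from 27.9 ± 21.3 to 3.19 ± 1.15 CPM in WT and from 31.7 ± 6.88 to 4.21 ± 2.33 CPM with the KO label.

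Of the ERK output genes outside the DUSP family, 8 of 10 were higher after APAP and 0 lower, with a median of 1.503 on the log2 scale. Egr1, an immediate early transcription factor, was at 19.1 ± 13.5 CPM in WT vehicle livers, with WT vehicle liver 2 the highest, and at 1133 ± 216 CPM after APAP. With the KO label it went from 4.71 ± 1.08 to 1320 ± 574 CPM, and over 12 livers it rose by 7.00 ± 0.61 on the log2 scale (adjusted p = 9.59e-06). Myc rose by 3.53 ± 0.39 (adjusted p = 6.64e-05). Fosl1, an AP-1 subunit induced by sustained ERK activity, had 0 counts in all 6 vehicle livers and 47 to 664 after APAP. Set against a floor of 3 counts per library, it was at least 48.4-fold higher in WT and at least 76.1-fold higher with the KO label. Etv4 and Epha4 did not pass, at 1.05 ± 0.59 and -0.59 ± 0.58. Of the Sprouty and SPRED inhibitors of ERK signalling, 1 of 6 was higher, near the 14% of all genes, namely Spry1 at 0.69 ± 0.16 (adjusted p = 0.00608), and of 4 other MAP kinase phosphatase genes tested 1 was higher, Ppp2ca at 0.47 ± 0.10 (adjusted p = 0.00466). Spry2 and Spred2, at 1.05 ± 0.37 and 0.32 ± 0.16, and the phosphatases Ppm1d and Ppm1a, at 0.46 ± 0.18 and -0.18 ± 0.08, did not pass. No gene of these lists passed between the genotype labels, with vehicle, after APAP or in the interaction.

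**Figure D5:**
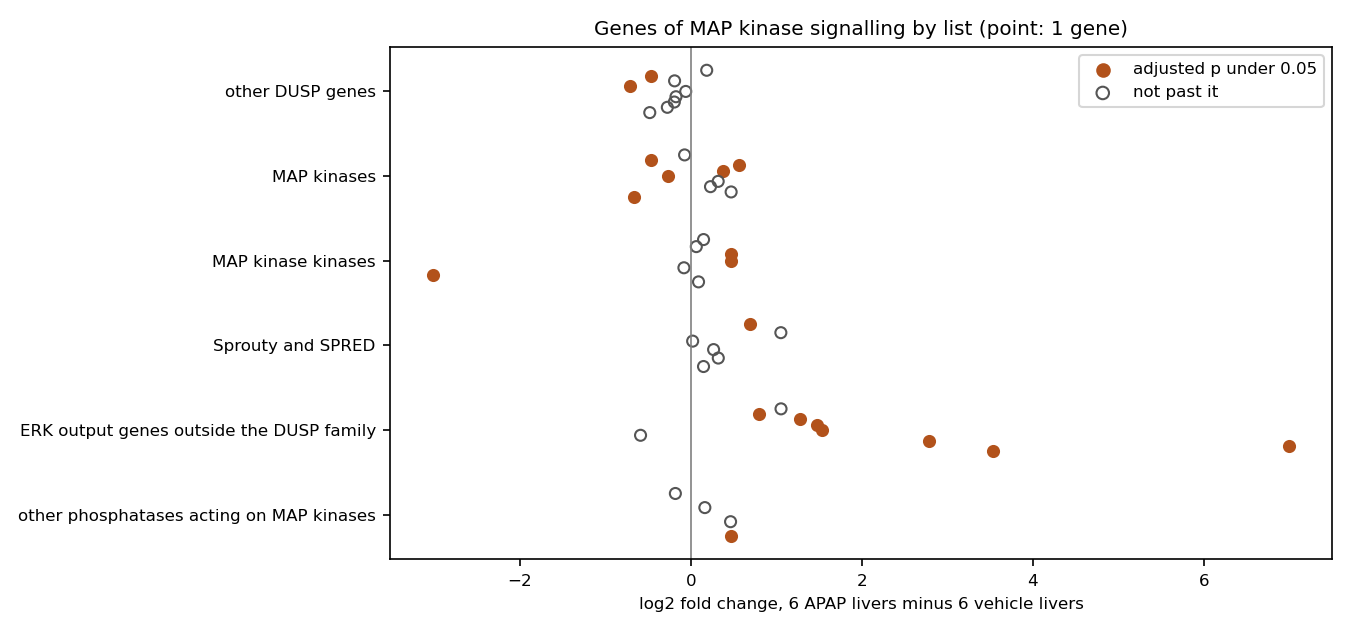
Log2 fold change between 6 APAP and 6 vehicle livers (horizontal) for genes of MAP kinase signalling outside the 10 DUSP genes, by list (vertical), with filled points for an adjusted p under 0.05 in edgeR's quasi-likelihood test; Fosl1, with 0 counts in every vehicle liver, is left out. Points of the ERK output list reach 7.00 (Egr1), the Map2k6 point lies at -3.02, and the other DUSP genes lie between -0.72 and 0.18.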

How the data were processed

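Gene-level values of 12 livers were deposited as raw read counts, FPKM and TPM per gene; the FPKM values were not used for any result. The submitters' processing notes name FastQC 0.11.7, Trimmomatic 0.38, HISAT2 2.1.0, Bowtie2 2.3.4.1 and StringTie 2.1.3b with build mm10 (GRCm38), and the kit was a stranded mRNA kit. The deposited counts were the input of every test, and the deposited TPM values of every comparison between genes. There were 0 unassigned columns of per-sample values and no pair of identical libraries.

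Genes were kept by filterByExpr in each comparison (all 10 members passed) and fitted with edgeR 4.0.16 (TMM, quasi-likelihood F-test, R 4.3.3), Benjamini-Hochberg adjusted over all genes, with a threshold of 0.05. Each 2-group comparison used its 6 livers; the pooled and interaction fits used 12. Alternatives were DESeq2 1.42.0 (size factors and Wald test), no filter, at least 10 counts in every sample, 1 fit over 12 livers, a replicate block, limma 3.58.1 on quantile-normalized log2(TPM + 1) and log2(TPM + 0.1), and each liver left out in turn. Fits were tested on counts simulated with the same dispersion for every gene and with changes placed in well-counted genes. Changes at low counts were not covered by this. TPM and CPM carry counting error that is wide at the low counts given for Dusp2, Dusp5, Dusp8 and Dusp14. The labels name separate livers. The p-values set a difference between groups against the spread between these livers. The members, the pathway and marker lists and the tests were chosen with earlier results of these data known. All members were described. Other genes were named as the 3 with the largest size of log2 fold change over 12 livers in each pathway list, or among the 3 with the smallest distance to a member. Dusp3, Mapk3, Mapk8, Mapk9, Etv4 and Epha4, and the marker and overlapping genes, were named after their values were seen.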

Additional observations from a re-analysis of the deposited data

How the results depend on the processing

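The 9 members above vehicle over all 12 livers were 9 in every alternative except at least 10 counts in every sample, which tested 7 members and gave 6. In WT the count of 5 was 8 with the DESeq2 Wald test, 8 with all 12 livers in one fit, and between 2 and 7 when livers were left out. With the KO label the count of 9 ranged from 7 to 8 when livers were left out. Over all genes, calls in WT ranged from 41 to 1523 and with the KO label from 1995 to 4325, where the values above rest on 255 higher and 67 lower in WT and 2034 higher and 1504 lower with the KO label. Between the labels they ranged from 0 to 29 after APAP, from 0 to 137 with vehicle and from 0 to 9 for the interaction, while the members had 0 in all of these.

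Signs changed for Dusp7 between APAP and vehicle when a liver was left out (WT -0.76 to 0.026, KO -0.20 to 0.21). After APAP, WT minus KO ran from -0.42 to 0.69 for Dusp5 and from -0.11 to 1.29 for Dusp6. In the interaction Dusp1 ran from -0.53 to 0.19, Dusp5 from -0.58 to 0.61 and Dusp6 from -0.39 to 1.04, and Dusp5 was -0.075 by limma on log2(TPM + 0.1). The cause was not tested. With TPM in place of CPM the 9 members other than Dusp7 kept APAP means above vehicle means. In the whole 300-base promoter TGACG was in 5 members and the other motifs in as many as before the start site. Omitting WT APAP liver 1 and WT vehicle liver 2 together was chosen after seeing the data.

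Liver numbers are shared by the groups, but no source ties them to a litter or day and the correlations of same-numbered livers were -0.26 to 0.05, so they were not treated as paired. With a replicate block 4 members were higher in WT, 7 with the KO label and 9 over 12 livers, and the calls over all genes in WT were 62.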
